A study of Mus musculus with 6 samples.

Results

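Bone morphogenetic protein (BMP) ligand and receptor genes were followed in muscle and epithelium sorted from the embryonic mouse trachea. The 10 genes were taken by symbol from a table of 23478 genes: the ligand genes Bmp2, Bmp3, Bmp4, Bmp5, Bmp6 and Bmp7, the type I receptor genes Bmpr1a, Bmpr1b and Acvr1, and the type II receptor gene Bmpr2. All 10 were in the table and all 10 passed the filter on low counts. Tracheas were taken at embryonic day 13.5 from embryos of the genotype Bmp4 f/f; gamma SMA eGFP, and both populations were labelled as controls. Muscle cells were sorted by the green fluorescent protein reporter of gamma smooth muscle actin and epithelial cells by an antibody to the surface protein Epcam, with 3 libraries each. Both groups thus carry floxed Bmp4 alleles, and their labels name no Cre. A GFP gate set by a smooth muscle actin reporter takes the cells in which that reporter is on, whatever else they are. The number of embryos behind a library is not given in the sources used here, so p-values measure the spread between these libraries.

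BMPs are secreted dimers of the transforming growth factor beta family. They bind complexes of type I and type II serine/threonine kinase receptors. The type II receptor phosphorylates the type I receptor, which phosphorylates Smad1, Smad5 and Smad9. These enter the nucleus with Smad4 and act on targets such as the Id genes. Bmp4 in the mesenchyme of the ventral foregut is known to be needed for the trachea to form and separate from the oesophagus, and BMP signalling has known roles in tracheal cartilage and muscle.

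Total counts were 17686605 to 49352790 in the muscle libraries and 11847432 to 54848820 in the epithelial libraries. Values are CPM, the counts per 1000000 counts of a library, after TMM scaling, which evens out library composition. The gene of the reporter, Actg2, lay at 403 to 2786 CPM in muscle and 1.60 to 2.47 in epithelium, and Epcam at 0.646 to 2.20 and 542 to 710 CPM. The libraries numbered 2 and epithelium replicate 3 also carried counts in genes of olfactory and vomeronasal receptors, which belong to sensory neurons. The 95th percentile over 1428 such genes was 1.38 to 3.48 CPM in these 3 libraries and 0 to 0.15 CPM in the other 3. Every one of the 10 BMP genes lay above that percentile in every library, Bmp6 by the least. These CPM values are not scaled for gene length, so part of the margin could reflect length, which was not tested. In epithelium replicate 1 the percentile was 0, so any count would lie above it. Identifiers in the file header read as day 16 of month 9 for replicates 1 and 3 and day 3 for replicate 2. Read in this way, both header dates hold both populations. Reading them as dates is an assumption, and what they mark is not stated in the sources used here.

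The sequences before the starts of Bmp4 and Bmpr1b are shown because these genes, 1 ligand and 1 receptor, differed in opposite directions. They are the 250 bases upstream of a RefSeq transcript start on GRCm38.p6, written 5′ to 3′ on the gene's strand, with CpG dinucleotides in capitals. RefSeq windows were found for 7 of the 10 genes, Bmp2, Bmp3 and Bmp7 being without one.
Bmp4 (chr14:46390670-46390919, minus strand): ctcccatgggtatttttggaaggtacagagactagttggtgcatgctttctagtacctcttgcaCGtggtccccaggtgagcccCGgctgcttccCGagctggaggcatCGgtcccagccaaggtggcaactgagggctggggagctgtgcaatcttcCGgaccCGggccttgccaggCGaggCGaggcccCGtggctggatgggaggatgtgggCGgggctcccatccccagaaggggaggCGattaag
Bmpr1b (chr3:141982265-141982514, minus strand): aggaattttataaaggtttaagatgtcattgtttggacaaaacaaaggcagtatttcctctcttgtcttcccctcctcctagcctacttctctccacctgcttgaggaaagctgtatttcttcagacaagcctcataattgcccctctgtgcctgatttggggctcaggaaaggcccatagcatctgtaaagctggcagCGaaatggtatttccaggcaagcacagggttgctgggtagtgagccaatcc
The Bmp4 window held 11 CpG and 63.2% G or C, and the Bmpr1b window held 1 CpG and 46.8% G or C. The medians of all 32851 windows were 6 CpG and 52.4%. At least 11 CpG were found in 35.6% of windows, and 1 or none in 18.8%. The Bmpr1b window lies inside the annotated gene, at a start downstream of its outermost one. The other 2 Bmpr1b windows, which are not printed, held 5 CpG each and 52.8% and 56.4% G or C, so the printed one had the fewest CpG of the 3. 4 short motifs were searched on both strands: the Tcf/Lef cores CTTTGA and CTTTGT and the Smad elements GGCGCC and GTCTAGAC. The Bmp4 window held none of them. The Bmpr1b window held CTTTGT once, as did 16.5% of all windows at least once, and none of the other 3. All windows held CTTTGA in 13.8%, GGCGCC in 9.6% and GTCTAGAC in 0.2% of cases.

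Of the 10 genes, 5 were higher in muscle (Bmp3, Bmp4, Bmpr1a, Bmpr2 and Acvr1) and 1 was higher in epithelium (Bmpr1b) by edgeR's quasi-likelihood test (adjusted p below 0.05). The other 4 ligand genes, Bmp2, Bmp5, Bmp6 and Bmp7, did not pass. Among all 19375 genes tested, 6.58% were called higher in muscle and 4.11% higher in epithelium, 10.7% in all. The median log2 fold change of muscle over epithelium was 0.54 over the 10 genes and -0.10 over all tested genes. In the 6 called genes the groups did not overlap, as in 26.9% of all tested genes, and in the remaining 4 they did. In bulk RNA a lower level can come from fewer cells that express a gene or from less RNA per cell, and these cannot be told apart.

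**Figure D1:**
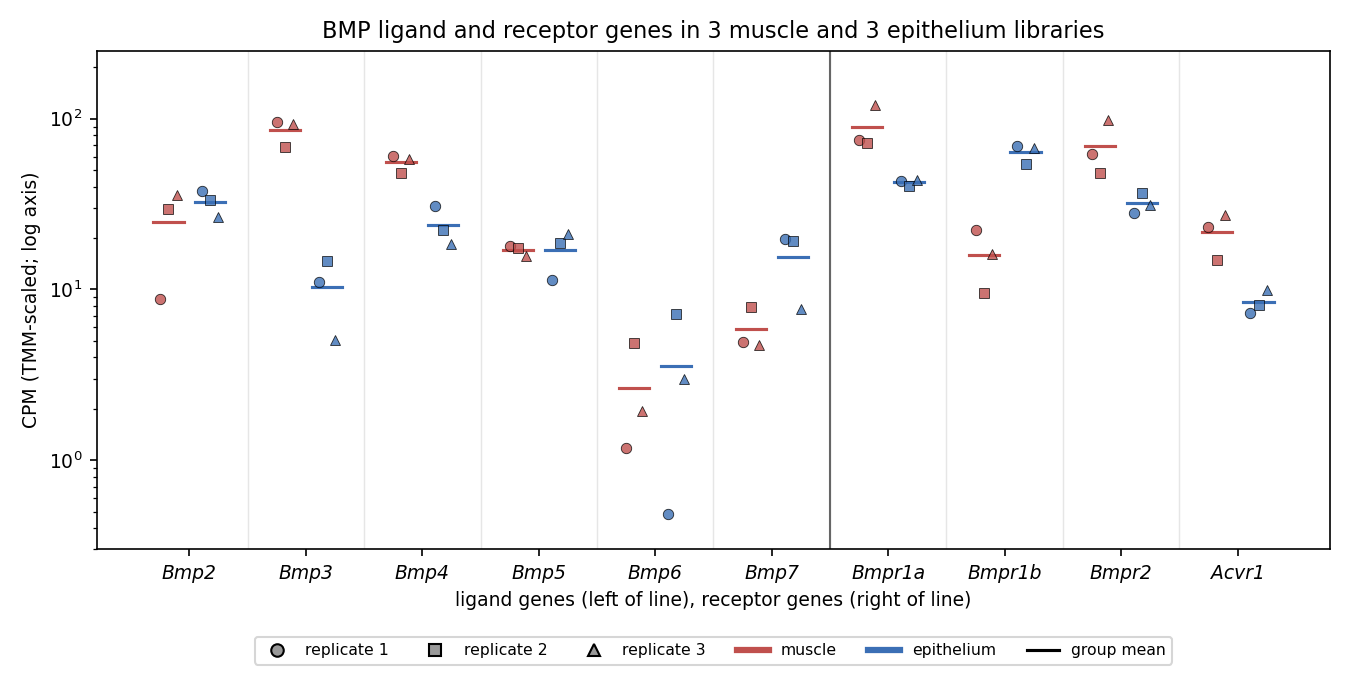
CPM of the 6 ligand genes and 4 receptor genes in each library (points, shape by replicate) with group means (lines), on a log axis. Bmp3, Bmp4, Bmpr1a, Bmpr2 and Acvr1 lie higher in all 3 muscle libraries, Bmpr1b lies higher in all 3 epithelial libraries, and the groups overlap in the other 4 genes.

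Bmp4 encodes the ligand best known for its role in foregut mesenchyme and is the floxed gene of these embryos. It lies on chromosome 14 from 46383520 to 46390669, on the minus strand, and had 60.8, 48.4 and 57.9 CPM in muscle replicates 1 to 3. In epithelium it had 30.9, 22.3 and 18.4 CPM. The lowest muscle library thus stood above the highest epithelial one, and Bmp4 RNA was present in every epithelial library. Summed over 6 fibroblast markers the epithelial libraries had 127 to 944 CPM, and over 8 cartilage markers 231 to 512. The part of such RNA in the Bmp4 level of epithelium was not tested. The group means of Bmp4 were 55.7 ± 6.49 (SD, n = 3) and 23.9 ± 6.41 CPM. Muscle was 2.33-fold higher, at 1.22 ± 0.26 on the log2 scale (SE; edgeR, adjusted p = 0.018). The libraries of the later header date gave 1.19 (adjusted p = 0.044), and the pair of the earlier date differed by 1.12. The gene Gm15217, on the opposite strand, shares 89 exonic bases with Bmp4. With 1.35 to 5.76 CPM it lay below Bmp4 in each library, and libraries of this kind do not keep strand in standard use.

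Bmp3 differed most of the 10 genes. It encodes an atypical ligand known to oppose the signalling of other BMPs, and lies on chromosome 5 from 98854415 to 98884396, on the plus strand. Muscle had 95.7, 68.6 and 93.0 CPM and epithelium 11.1, 14.7 and 5.07. The means were 85.8 ± 14.9 and 10.3 ± 4.87 CPM (SD, n = 3). Muscle was 8.36-fold higher, at 3.06 ± 0.40 on the log2 scale (SE; edgeR, adjusted p = 0.0016). The highest epithelial value was in replicate 2. That library also had the most RNA of the 6 listed fibroblast markers (944 CPM summed, against 127 and 165 in the other epithelial libraries). Among the epithelial libraries it was highest too for summed cartilage (512 CPM), smooth muscle (134) and endothelial (55.8) markers. Its 95th percentile over the sensory receptor genes, 3.48 CPM, was also the highest. The part of such RNA in its Bmp3 value was not tested. Within the later header date the log2 fold change of Bmp3 was 3.46 (adjusted p = 0.0040), and in the earlier pair the difference was 2.22.

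Bmp7 had the higher mean in epithelium but did not pass the test. It encodes a ligand of the group that also holds Bmp5 and Bmp6, and lies on chromosome 2 from 172868012 to 172940321, on the minus strand. Muscle had 4.90, 7.89 and 4.70 CPM and epithelium 19.9, 19.2 and 7.70. The third epithelial library fell below the second muscle library, so the groups overlapped. On the log2 scale muscle over epithelium was -1.42 ± 0.46 (SE; edgeR, adjusted p = 0.095), with an unadjusted 95% interval from -2.47 to -0.37. The Wald test of DESeq2 gave -1.52 with an adjusted p of 0.042, and it was the 1 of 17 alternatives in which Bmp7 passed.

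Bmp2, the ligand closest to Bmp4 in the family, lies on chromosome 2 from 133552159 to 133562885, on the plus strand. It had 8.82, 29.6 and 35.6 CPM in muscle and 37.7, 33.4 and 26.5 in epithelium. Muscle replicate 1 stood apart from the rest, which ranged from 26.5 to 37.7. On the log2 scale the difference was -0.40 ± 0.45 (edgeR, adjusted p = 0.81; 95% interval from -1.41 to 0.62). Without muscle replicate 1 it was 0.02 (adjusted p = 1). Muscle replicate 1 had the least of the summed cartilage markers among the muscle libraries (754 CPM, against 1300 and 1280) and of the fibroblast markers (2750, against 3390 and 4030), and their part in the low Bmp2 value was not tested.

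Bmp5, on chromosome 9 from 75775364 to 75900310 on the plus strand, was the ligand gene with the closest means. It had 17.9, 17.4 and 15.8 CPM in muscle and 11.4, 18.6 and 21.0 in epithelium. The means were 17.0 ± 1.08 and 17.0 ± 4.97 CPM (SD, n = 3). The interval of its log2 fold change ran from -0.69 to 0.70 (edgeR, adjusted p = 1), so a difference of that size in either direction lay within the error.

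Bmp6, on chromosome 13 from 38345107 to 38500302 on the plus strand, had the lowest level of the 10 genes. It had 1.18, 4.84 and 1.95 CPM in muscle and 0.483, 7.15 and 3.00 in epithelium, from 26 to 107 counts. In each group its highest value was in replicate 2. In epithelium replicate 2 the level of 7.15 CPM compares with a 95th percentile of 3.48 CPM over the sensory receptor genes. Txndc5, on the opposite strand, shares 224 exonic bases with Bmp6 and had 123 to 492 CPM, so the Bmp6 values are uncertain. On the log2 scale the difference was -0.41 ± 1.18 (edgeR, adjusted p = 0.94).

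**Figure D2:**
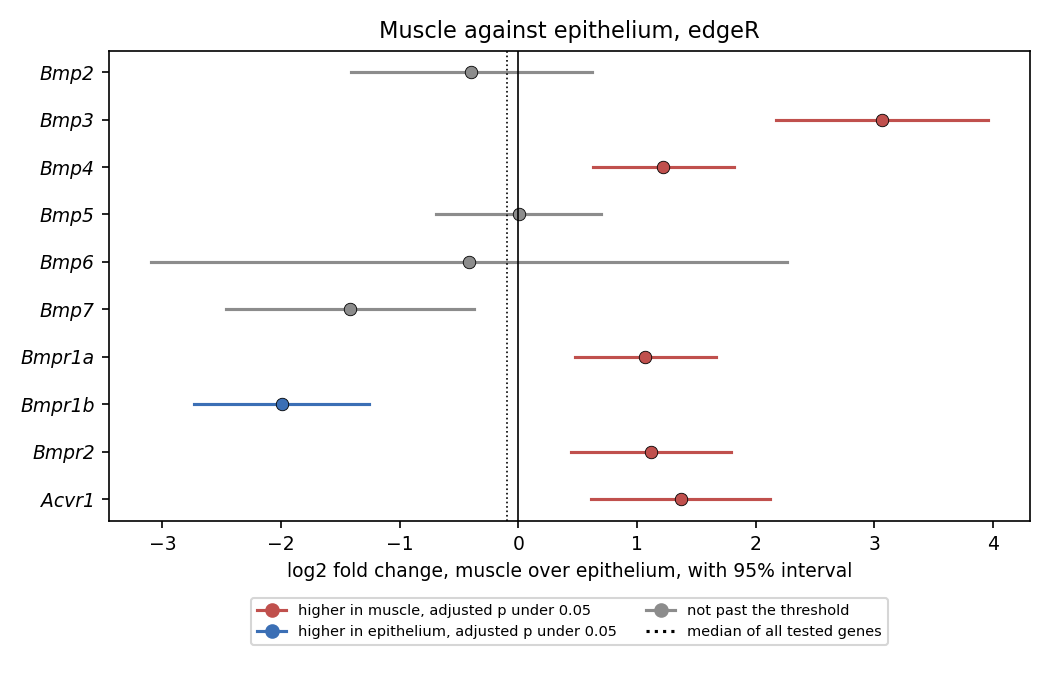
Log2 fold change of muscle over epithelium for each of the 10 genes (points) with unadjusted 95% intervals (lines) from edgeR, and the median of all tested genes (dotted line at -0.10). Bmp3 lies farthest toward muscle at 3.06 and Bmpr1b farthest toward epithelium at -2.00.

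Among the receptor genes, the type I genes moved in opposite directions. Bmpr1a encodes a type I receptor that binds Bmp2 and Bmp4 and is expressed in many tissues. It lies on chromosome 14 from 34410734 to 34503341, on the minus strand. Muscle had 74.8, 72.3 and 120.1 CPM and epithelium 43.2, 40.6 and 43.5. The epithelial libraries lay close together and the muscle libraries did not, replicate 3 being the highest. The means were 89.1 ± 26.9 and 42.4 ± 1.62 CPM (SD, n = 3). Muscle was 2.10-fold higher, at 1.07 ± 0.26 on the log2 scale (edgeR, adjusted p = 0.031).

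Bmpr1b encodes the related type I receptor known for its role in the cartilage of the digits. It lies on chromosome 3 from 141837136 to 142169425, on the minus strand. Muscle had 22.2, 9.54 and 16.03 CPM and epithelium 69.3, 54.2 and 67.1. Each epithelial value was above 50 CPM and no muscle value exceeded 22.2. The means were 15.9 ± 6.31 and 63.5 ± 8.14 CPM (SD, n = 3). Epithelium was 3.99-fold higher, with muscle over epithelium at -2.00 ± 0.33 on the log2 scale (SE; edgeR, adjusted p = 0.0050). The later header date gave -1.91 (adjusted p = 0.0050) and the earlier pair -2.51. Summed over 9 epithelial markers the muscle libraries had 13.8 to 27.5 CPM, against 3390 to 4540 in epithelium. The part of epithelial RNA in the Bmpr1b level of muscle was not tested.

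Acvr1 encodes a type I receptor used by Bmp6 and Bmp7. It lies on chromosome 2 from 58388644 to 58567157, on the minus strand. Muscle had 23.3, 14.9 and 27.2 CPM and epithelium 7.29, 8.15 and 9.92, with no overlap. Muscle was 2.58-fold higher, at 1.37 ± 0.33 on the log2 scale (edgeR, adjusted p = 0.031).

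Bmpr2, the type II receptor gene that is specific to BMPs, lies on chromosome 1 from 59763400 to 59879014, on the plus strand. Muscle had 62.2, 47.9 and 97.8 CPM and epithelium 28.1, 36.6 and 31.2. Muscle was 2.17-fold higher, at 1.12 ± 0.30 on the log2 scale (edgeR, adjusted p = 0.045), close to the value of Bmpr1a. Of the 6 calls this one lay nearest to the threshold. In the earlier header pair the difference was 0.39, and the later date gave 1.36 (adjusted p = 0.023). Bmpr1a, Acvr1 and Bmpr2 were all highest in muscle replicate 3 and lowest in muscle replicate 2, the library with the least smooth muscle marker RNA (4000 CPM summed over 8 markers, against 16100 and 17100). The part of that library's makeup in these values was not tested. Without it the log2 fold changes were called at an adjusted p of 0.016, 0.013 and 0.012.

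Ratios between a pair of genes in the same library do not depend on how libraries are scaled. 5 were compared between the groups. With 3 libraries against 3 the exact permutation test, two-sided, can give no p under 0.10. The log2 ratio of Bmpr1b to Bmpr1a counts was -1.75, -2.92 and -2.90 in muscle and 0.68, 0.42 and 0.62 in epithelium. Bmpr1b counts were thus the lower of the pair in each muscle library and the higher in each epithelial library. The difference of the means was -3.10, an 8.58-fold shift (exact permutation p = 0.10, 0.167 adjusted over the 5 ratios). The ratio of Bmp4 to Bmp7 was 3.63, 2.61 and 3.62 in muscle and 0.64, 0.21 and 1.26 in epithelium, a difference of 2.58 (exact permutation p = 0.10). The ratio of Bmp4 to Bmp2 differed by 1.86 (exact permutation p = 0.10), and by 1.17 without muscle replicate 1, whose Bmp2 was low. The ratio of Bmpr2 to Bmpr1a was -0.27, -0.59 and -0.30 in muscle and -0.62, -0.15 and -0.48 in epithelium. It differed by 0.03 (exact permutation p = 0.90), less than the SD of 0.18 and 0.24 within the groups. The ratio of Acvr1 to Bmpr1a differed by 0.30 (exact permutation p = 0.30).

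Levels of different genes were set side by side as CPM per kilobase of exon. Among the ligand genes in muscle, Bmp4 was highest at 24.8 ± 2.89 CPM per kilobase (SD, n = 3), followed by Bmp3 at 11.6 ± 2.02, Bmp2 at 6.94 ± 3.95, Bmp5 at 4.23 ± 0.27, Bmp7 at 1.45 ± 0.44 and Bmp6 at 0.68 ± 0.49. The ranges of Bmp3 and Bmp2, of Bmp2 and Bmp5 and of Bmp7 and Bmp6 overlapped between libraries, although Bmp3 lay above Bmp2 and Bmp7 above Bmp6 in each of the 3. With the longest coding transcript as the length the ranges of Bmp3 and Bmp2 did not overlap. In epithelium Bmp4 (10.6 ± 2.85) and Bmp2 (9.14 ± 1.59) overlapped at the top, with Bmp4 the higher in each library, followed by Bmp5 (4.22 ± 1.24) and Bmp7 (3.88 ± 1.70), which also overlapped. Bmp3 (1.39 ± 0.66) and Bmp6 (0.91 ± 0.86) were lowest. Of these 6 ligand genes, Bmp4 was the highest in all 6 libraries. Ligand genes outside the 6 were not set on this scale, so their place beside Bmp4 was not tested. Gdf5, for example, had 100.3, 58.9 and 95.5 CPM in muscle and 5.54, 36.3 and 13.3 in epithelium. By mean, Bmp3 ranked next to Bmp4 in muscle and above only Bmp6 in epithelium. Among the receptor genes in muscle, Bmpr1a (11.8, 11.4 and 18.9 CPM per kilobase) stood above Acvr1 (4.52 ± 1.30), Bmpr2 (3.85 ± 1.43) and Bmpr1b (2.67 ± 1.06), and the ranges of neighbours among these 3 overlapped. In epithelium Bmpr1b was highest at 10.7 ± 1.37, above Bmpr1a at 6.68 ± 0.26 in all 3 libraries. Bmpr2 (1.78 ± 0.24) and Acvr1 (1.75 ± 0.28) overlapped below them.

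As a share of the summed level of the 6 ligand genes, Bmp4 made up 55.8%, 46.1% and 47.8% in muscle and 40.7%, 30.5% and 33.8% in epithelium. Bmp3 made up 19.9% to 26.7% in muscle and 2.83% to 6.12% in epithelium. Bmp2 made up 5.12% to 18.6% and 28.9% to 31.4%, and Bmp7 2.17% to 4.21% and 7.91% to 14.7%. Each of these 4 shares was separated between the groups. That of Bmp5 overlapped, with 7.28% to 9.25% in muscle and 8.41% to 21.5% in epithelium. The share of Bmp6 also overlapped, with 0.624% to 2.66% and 0.367% to 5.64%. Shares of a sum depend on each other, so larger shares of some genes lower those of the rest. In CPM Bmp4 and Bmp3 were separated between the groups, whereas Bmp2 and Bmp7 overlapped and did not pass the test. Of the 3 type I receptor genes, Bmpr1b made up 18.3%, 9.95% and 9.87% of the summed level in muscle and 58.3%, 53.0% and 55.8% in epithelium. Bmpr1a held the largest share in each muscle library (58.0% to 70.8%) and 34.0% to 37.2% in epithelium. Acvr1 made up 19.2% to 23.8% and 7.57% to 10.2%. With the length of the longest protein-coding transcript in place of all exons, Bmpr1b made up 12.2% ± 4.52 (SD, n = 3) in muscle and 54.9% ± 2.80 in epithelium.

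**Figure D3:**
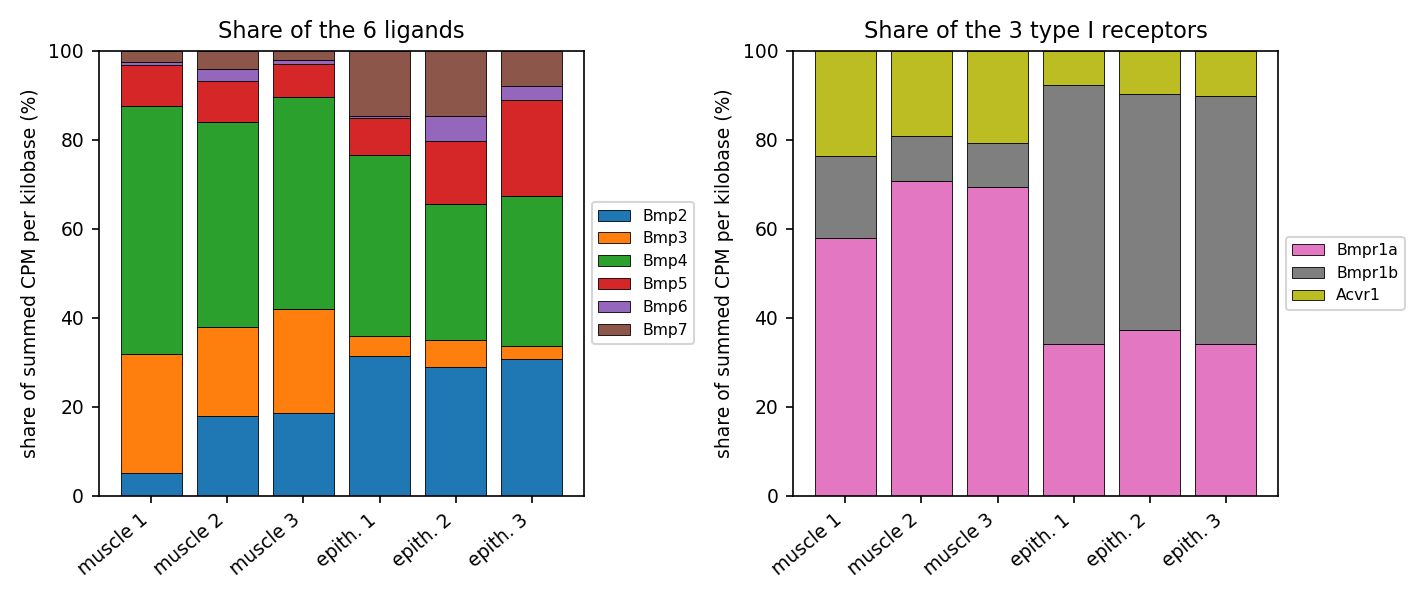
Share of each ligand gene (left) and type I receptor gene (right) in the summed CPM per kilobase of its class, by library. Bmpr1b makes up 53.0% to 58.3% of the type I receptor level in epithelium and 9.87% to 18.3% in muscle, and the Bmp3 share is 19.9% or more in each muscle library.

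The 6 calls differed in how far they rested on single libraries. Bmp3 and Bmpr1b passed in all 6 fits that each left out a library, with adjusted p of at most 0.0034 and 0.018 (edgeR). Bmp4 did not pass without muscle replicate 1 (adjusted p = 0.061), muscle replicate 3 (0.055), epithelium replicate 2 (0.067) or epithelium replicate 3 (0.12). Acvr1 did not pass without muscle replicate 1 (0.12) or 3 (0.18) or epithelium replicate 1 (0.080) or 3 (0.091). Bmpr1a passed only without muscle replicate 2. Its adjusted p was 0.052 and 0.14 without muscle replicates 1 and 3 and 0.086, 0.066 and 0.14 without epithelium replicates 1 to 3. Bmpr2 also passed only without muscle replicate 2, with 0.080 and 0.17 without muscle replicates 1 and 3 and 0.13, 0.051 and 0.18 without epithelium replicates 1 to 3. The direction of these 6 genes was the same in every such fit. Their log2 fold changes ranged from 0.94 to 1.47 for Bmp4, 0.80 to 1.21 for Bmpr1a, 0.80 to 1.34 for Bmpr2 and 1.19 to 1.59 for Acvr1.

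**Figure D4:**
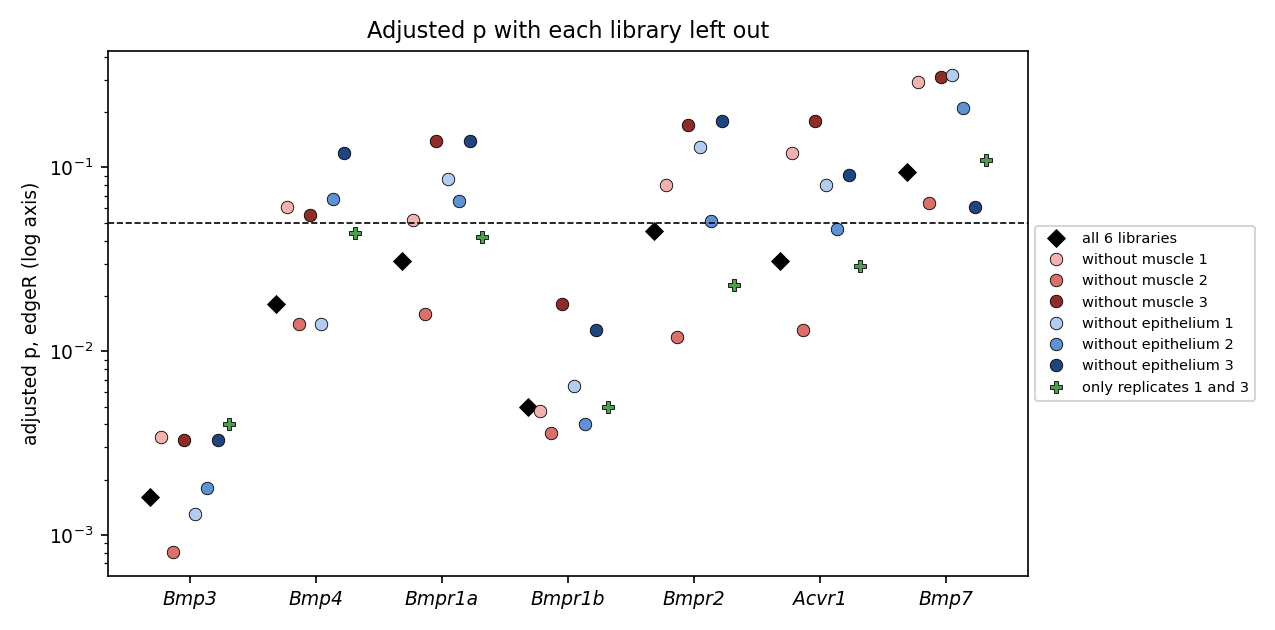
Adjusted p (edgeR, log axis) of the 6 called genes and of Bmp7 with all libraries, with each library left out and with replicates 1 and 3 alone. The dashed line is 0.05; Bmp3 and Bmpr1b stay below it throughout, and Bmp7 stays above it throughout.

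Other genes of the pathway were grouped in 6 lists by role, with 61 genes tested. Of these, 13 were higher in muscle and 4 in epithelium, beside 6.58% and 4.11% of all tested genes, and their median log2 fold change was 0.38. Of 7 other ligand genes tested, 1 was higher in muscle, the growth differentiation factor gene Gdf5 (2.22 on the log2 scale, edgeR, adjusted p = 0.046). With all 6 libraries and no covariate, none was called in epithelium by edgeR, DESeq2 or limma-voom, and 0 had an unadjusted edgeR p under 0.05. With background counts as a covariate edgeR called 1. Of 14 other receptors and coreceptors, 5 were higher in muscle by edgeR. Without epithelium replicate 3 the number was 3. In epithelium none was called by any of these tools with all 6 libraries, with 1 at an unadjusted edgeR p under 0.05. There edgeR called 1 without epithelium replicate 2, and 1 with the later header date alone. The 5 were Tgfbr3 (2.52, adjusted p = 0.0071), a coreceptor, Acvrl1 (2.43, adjusted p = 0.0038), the type I receptor of Bmp9 and Bmp10, and Bambi (1.57, adjusted p = 0.0055), a pseudoreceptor that blocks signalling, with Tgfbr2 and Neo1. Acvrl1 is best known from endothelium. The 7 endothelial markers summed to 39.2 to 65.2 CPM in muscle and 1.25 to 55.8 in epithelium, and none was at 0 in all libraries of a group. Tek was the largest part of the muscle sum, with 34.6, 26.6 and 32.9 CPM in replicates 1 to 3. Pecam1 had 0.84, 5.79 and 6.42 CPM in these libraries, and Cdh5 0.08, 3.94 and 1.87. None of the 7 markers was called by edgeR, with 1 higher in muscle at an unadjusted p under 0.05. Their part in the Acvrl1 difference was not tested.

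Of 6 Smad genes that carry the signal, Smad3 (-1.70, adjusted p = 0.026, edgeR), of the TGF-beta branch, and Smad9 (-1.01, adjusted p = 0.043), of the BMP branch, were higher in epithelium. None of the 4 inhibitory Smad and Smurf genes passed in edgeR with all 6 libraries, TMM scaling, no covariate and the standard filter, with 1 higher in muscle and 2 higher in epithelium at an unadjusted p under 0.05. DESeq2 called 1 of them higher in epithelium and limma-voom 0. When muscle replicate 2 was left out edgeR called 1 higher in muscle, and when epithelium replicate 2 was left out it called 1 higher in epithelium. Of 11 target genes, Id1 (-1.85, adjusted p = 0.028) and Atoh8 (-1.01, adjusted p = 0.021) were higher in epithelium, and Bambi, which is also in the receptor list, was higher in muscle. The levels of Id1 were 120.6, 44.5 and 133.6 CPM in muscle and 396.6, 224.7 and 458.6 in epithelium. The other 8 target genes did not pass, and the list median was 0.06 on the log2 scale. Of these 8, Id3 (0.24), Id4 (0.63), Hey1 (0.56), Msx2 (1.00) and Smad7 (0.06) leaned toward muscle. Id2 (-1.03), Smad6 (-1.15) and Msx1 (-0.41) leaned toward epithelium. Of 22 antagonists and extracellular modulators, 7 were higher in muscle by edgeR. The number was 4 without muscle replicate 1, 4 without muscle replicate 3, 3 without epithelium replicate 3 and 4 with library totals. In epithelium edgeR called none with all 6 libraries, with 0 at an unadjusted p under 0.05, limma-voom 0 and DESeq2 1. Without muscle replicate 2, and with the later header date alone, edgeR called 1. The 3 with the largest fold change were Bmper (3.46, adjusted p = 0.023), a secreted binder of BMPs, Kcp (2.54, adjusted p = 0.0047), a chordin-like protein, and Bmp1 (2.35, adjusted p = 0.0025), a protease that cleaves chordin and is no BMP ligand. The adjusted p of Gdf5, Smad9, Smad3, Id1, Atoh8 and Bmper rose past the threshold in 4, 6, 2, 2, 3 and 5 of the 6 fits that left out a library, reaching 0.20, 0.10, 0.087, 0.063, 0.089 and 0.087. Tgfbr3, Acvrl1, Bambi, Kcp and Bmp1 passed in all 6. Neo1 lost its call in 4 of the 6, with an adjusted p up to 0.17 (edgeR), and Tgfbr2 in 1, at 0.050 without epithelium replicate 3.

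**Figure D5:**
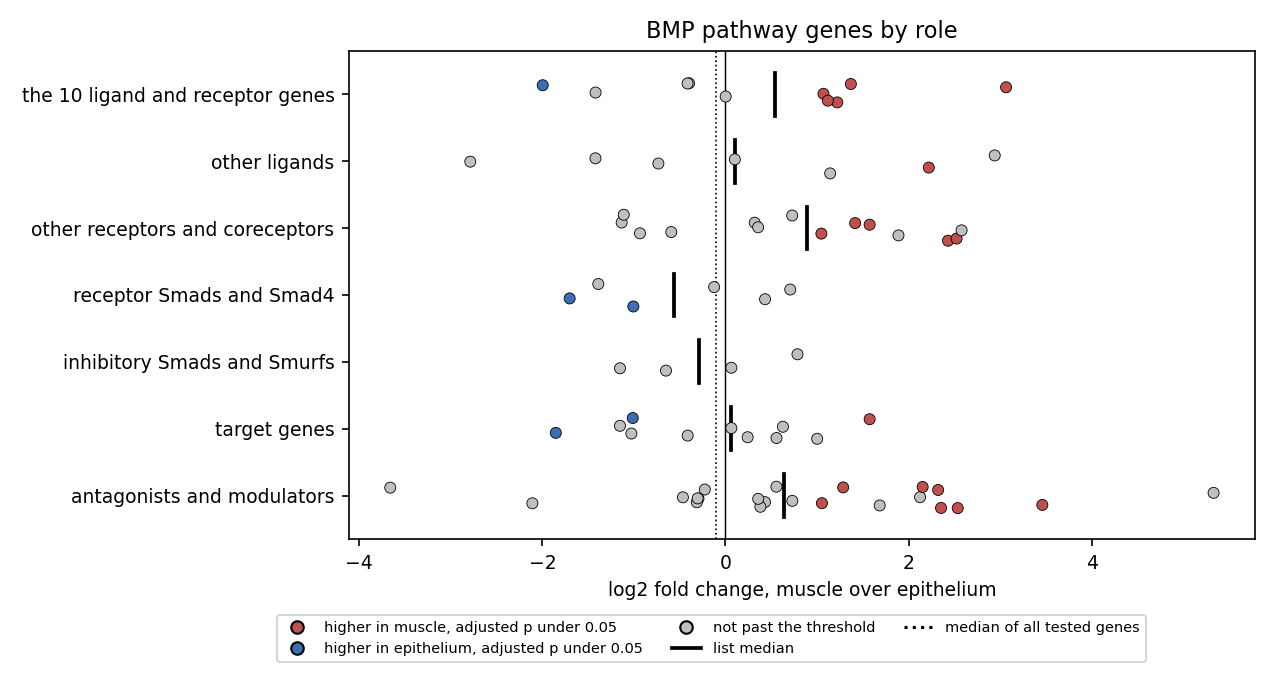
Log2 fold change of muscle over epithelium for the 10 ligand and receptor genes and for 6 lists of other pathway genes (points, coloured where the adjusted p was under 0.05), with list medians (bars) and the median of all tested genes (dotted line). Called antagonists and modulators all lie on the muscle side, between 1.05 and 3.46.

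By likeness of pattern, the genes nearest to Bmp4 among 9370 tested genes of at least moderate level were Arhgef40, Kif21b, Plod2, Myo18a and Dixdc1. Their centred log2 CPM over the 6 libraries differed from that of Bmp4 by a root mean square of 0.10 to 0.15. Arhgef40, the nearest, had 233.4, 180.1 and 254.0 CPM in muscle and 110.2, 81.5 and 73.5 in epithelium. The genes nearest to Bmpr1b were Ucp2, Rassf7, Aagab, Capn5 and Dach2, at 0.09 to 0.20. Ucp2 had 53.6, 26.7 and 44.2 CPM in muscle and 181.5, 140.3 and 199.7 in epithelium. Like Bmpr1b it was lowest in replicate 2 of each group, which follows from its choice by likeness over these same libraries.

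Markers of other mesenchymal cell types were measured beside the BMP genes. Of 8 cartilage markers 3 were higher in muscle, with sums of 754 to 1300 CPM in muscle and 231 to 512 in epithelium. Of 6 fibroblast markers 4 were higher in muscle, with sums of 2750 to 4030 and 127 to 944 CPM. None was at 0 in all libraries of a group. Sox9, Matn4 and Col9a1 were separated between the groups, whereas Col2a1 overlapped (179 to 459 CPM in muscle, 154 to 294 in epithelium) and Matn1 was at most 1.45 CPM in muscle. Whether these transcripts came from the sorted cells or from others, and their part in the higher levels of Bmp3, Bmp4, Bmpr1a, Bmpr2 and Acvr1 were not tested. Of 5 genes listed for oesophageal epithelium 2 were higher in epithelium, with sums of 1.69 to 8.14 CPM in muscle and 64.0 to 167 in epithelium. Most of the epithelial sum was Trp63 (71.76, 65.63 and 40.3 CPM in replicates 1 to 3) and Krt15 (62.55, 52.4 and 19.0). Whether this RNA came from oesophageal or tracheal epithelium was not tested. The part of these 5 genes in the higher Bmpr1b of epithelium was not tested either. The 8 smooth muscle markers were all higher in muscle, and the 9 epithelial markers were all higher in epithelium. Sums over markers of neural crest and glia reached at most 68.8 CPM in a library, of mesothelium 16.4, of immune cells 30.5 and of erythroid cells 7.15, the 4 globin genes among the last being listed at 0 throughout. No gene of these 4 lists was called by edgeR, and 1 gene of the neural crest and glia list had an unadjusted p under 0.05.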

How the data were processed

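RNA was measured in 6 libraries of sorted tracheal cells, made with a template-switching kit for low input and Nextera XT per the labels' protocols. The authors deposited whole-number counts per gene symbol. Per the submitters' processing notes the build was mm10 and Trim Galore, Bowtie2, Cufflinks and DESeq were used. Their roles, versions and the annotation are not given in the sources used here. Counts have no molecular identifiers and include PCR copies. Libraries were grouped by title.

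Counts were analysed in R 4.3.3 with edgeR 4.0.16: filterByExpr by group, TMM scaling, robust quasi-likelihood fit with no covariate, two-sided. Adjusted p-values are Benjamini-Hochberg values across every gene tested, called below 0.05. Standard errors and unadjusted 95% intervals were derived from the test statistic. DESeq2 1.42.0 and limma-voom (limma 3.58.1) were alternatives, beside other scalings, filters, covariates and leaving out each library. The fit was tested on simulated data. The design's protein comparison was not made. Ratios used counts plus 0.5 and an exact permutation test (SciPy 1.17.1). Gene positions and exon lengths came from GENCODE M21 (GRCm38, the sequence of mm10), and sequences from RefSeq (GRCm38.p6). Hjv and the cartilage marker Cnmd were matched through RefSeq synonyms. All 10 genes were named, and from each other list up to 3 called genes in each direction by fold change. Tgfbr2, Neo1 and genes on opposite strands were named after their values were seen. Likeness used log2(CPM + 0.5) over genes averaging 4 or more in log2 CPM. The genes and lists were chosen with earlier results of these data known.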

Additional observations from a re-analysis of the deposited data

How the results depend on the processing

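Bmp3 and Bmpr1b kept their direction and passed the threshold in all 17 alternatives, Bmp4 passed in 12, Bmpr1a and Acvr1 in 11 and Bmpr2 in 8. Using only the libraries of the later header date, a choice made after the data were seen, gave 5 and 1 calls among the 10 genes and 7 other pathway genes higher in epithelium. With library totals only, 3 of the 10 genes were higher in muscle, Bmpr2 (0.80, adjusted p = 0.090) and Acvr1 (1.06, adjusted p = 0.063) being lost, and the other pathway genes gave 8 calls toward muscle and 7 toward epithelium. That scaling moved the median of all genes by -0.23, called 1439 genes higher in epithelium and left 42.0% of all calls on the muscle side, against 61.5% with TMM. Relative to the median of all genes, Bmpr2 was at 1.21 with TMM and 1.13 with library totals, and Acvr1 at 1.46 and 1.40. With DESeq2 size factors Bmpr2 had an adjusted p of 0.054.

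An average log2 CPM of at least 2 gave 1343 genes and 7 other pathway genes higher in epithelium, and left Bmp6 untested. The DESeq2 Wald test gave 1954 and 1585 genes, 2 of the 10 genes (Bmp7 added) higher in epithelium, and 20 and 8 other pathway genes. At an adjusted p under 0.01, 579 and 404 genes, 1 of the 10 genes higher in muscle (Bmp3), and 7 and 0 other pathway genes remained past the threshold. At that threshold edgeR thus called no other pathway gene higher in epithelium; 4 of them pass 0.05. The header date as a term gave 2054 genes higher in muscle, and the covariate for background counts gave 1213 genes and 7 other pathway genes higher in epithelium.

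With the replicate block the 10 genes gave 4 calls toward muscle and 1 toward epithelium, and Bmpr2 did not pass (adjusted p = 0.061). The labels do not say that numbers pair libraries. Deviations from the group means correlated at 0.57, 0.66 and -0.42 for the libraries numbered 1, 2 and 3 over 19375 genes, so the pairing was not taken as shown.

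Leaving out 1 library gave 570 to 1655 genes higher in muscle and 514 to 918 in epithelium, 1 to 5 and 1 to 1 of the 10 genes, and 6 to 15 and 0 to 5 other pathway genes. 3 of the 10 genes have a sign that depended on the setting. Bmp5 was at -0.10 with DESeq2 size factors and with DESeq2, -0.26 with library totals, -0.17 with the stricter filter, -0.02 with the later header date, -0.02 and 0.00 without muscle replicates 1 and 2 and -0.20 without epithelium replicate 1. Bmp6 was at 0.84 with limma-voom, 0.00 with the replicate block, 0.49 with the covariate and 0.67 without epithelium replicate 2. Without a library Bmp2 ranged from -0.75 to 0.02, the latter without muscle replicate 1, Bmp5 from -0.20 to 0.08 and Bmp6 from -1.16 to 0.67. The ratio of Bmpr2 to Bmpr1a ranged from -0.07 to 0.17 without a library. The cause of these shifts was not tested. The other ratios kept their direction, from -3.49 to -2.90 for Bmpr1b to Bmpr1a, 2.34 to 2.92 for Bmp4 to Bmp7, 1.17 to 2.21 for Bmp4 to Bmp2 and 0.13 to 0.43 for Acvr1 to Bmpr1a. Bmp6 had the fewest counts of the 10 genes, 26 to 107 per library, the fewest in the deepest library and the most in the shallowest.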
